A study of Sus scrofa with 31 samples.

Results

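Whole blood of miniature pigs drawn at 30 weeks of age was compared with whole blood drawn at 12 weeks, over every probe of a porcine gene expression array. Of the 31 arrays in the series, 15 belonged to these ages: 8 at 12 weeks, from 4 males and 4 females, and 7 at 30 weeks, from 3 males and 4 females. All were healthy, untreated Clawn miniature pigs kept under specific-pathogen-free conditions, the blood came from the superior vena cava into RNA-stabilising tubes, and each array carried the RNA of 1 animal in 1 colour. The remaining arrays, of fetal and 20-week blood, entered only the alternatives that used the whole series. The methods describe a single cohort of males and females kept from 12 to 30 weeks, so animals sampled from it recur between the ages. The labels do not tie an animal to its arrays, so no pairing by animal could be fitted and each array was treated as independent. For 1 array of 30-week females the gender entry read male against its title and source, and it was kept as female. The 1 Y-linked probe, UTY, was present on 0 of the 15 arrays and gave no check of the sex labels.

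Blood carries red cells, platelets and several kinds of leukocyte, and RNA from whole blood is a mixture of all of them. T and B lymphocytes recognise antigen, neutrophils and monocytes engulf microbes and release antimicrobial proteins, platelets start clotting, and young red cells still hold globin transcripts. The swine leukocyte antigens (SLA), the major histocompatibility complex of the pig, present peptides to T cells, and Toll-like receptors and complement sense microbes. In bulk samples such as these, fewer cells of a type and less RNA per cell cannot be told apart. The paper counted blood cells of this cohort and found no significant change with age in the fractions of the white cell types. Platelet counts differed significantly with age in females only, whose mean count was lower at the later age compared here. These counts are not tied to single arrays, and their part in the marker results was not tested.

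The arrays of 30 weeks were brighter than those of 12 weeks. The number of probes scored present by the scanner software ran from 13428 to 20731 at 12 weeks (mean 17053.8 ± 2310.87, SD, n = 8) and from 17361 to 21892 at 30 weeks (19970 ± 1677.61, SD, n = 7), a difference past the spread in a two-sided exact permutation test over 6435 splits of the arrays (p = 0.018). The 75th percentile of the unnormalized signal was 5.49 ± 0.83 on the log2 scale at 12 weeks and 6.52 ± 0.57 at 30 weeks (SD, n = 8 and 7, exact permutation p = 0.0194), while the local background was alike, between 55.0 and 58.4 signal units on all arrays. The ages were thus compared at unequal brightness, for which values are given below for some of the results. The arrays of 12-week male 3 and 12-week female 4 stood with the 30-week arrays, with 75th percentiles of 96.6 and 94.7 signal units against 20.3 to 67.4 on the other 6 arrays of that age, and mean correlations over the tested probes of 0.943 and 0.947 with the 30-week arrays against 0.893 and 0.891 with their own age. No scan day and no slide held both ages, so age and day cannot be told apart within a day. Counts of calls without those 2 arrays are given below, and values with the brightness of the array as a covariate for some genes and lists. The changes of most genes and lists are given at the main setting alone.

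**Figure D1:**
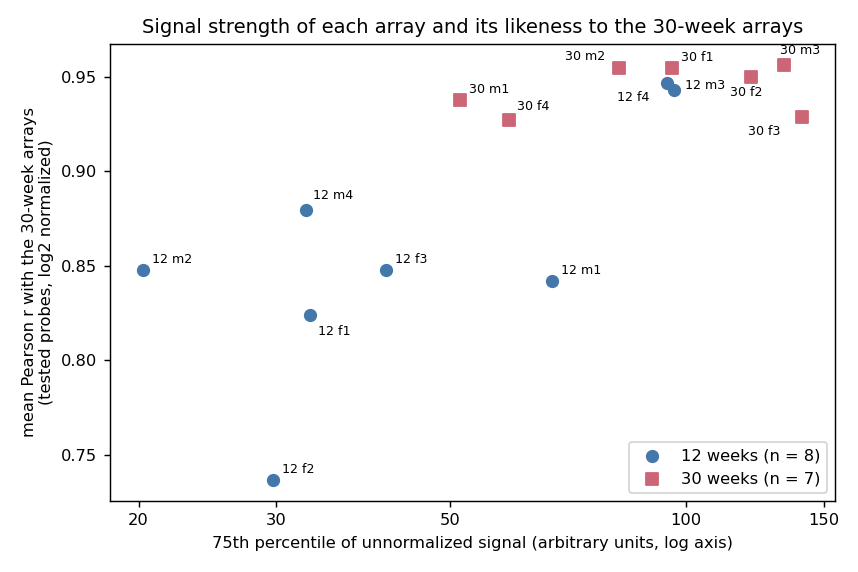
Each point is 1 array (circles 12 weeks, n = 8, squares 30 weeks, n = 7), with the 75th percentile of its unnormalized signal on a log axis and its mean Pearson correlation with the 30-week arrays over the 17860 tested probes, m and f giving the sex. The arrays of 12-week male 3 and 12-week female 4 lie among the 30-week arrays, at correlations of 0.943 and 0.947, and the other 12-week arrays lie between 0.737 and 0.879.

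Between 12 and 30 weeks the signal of 6808 of 17860 tested probes changed, 4332 being higher and 2476 lower at 30 weeks (limma, Benjamini-Hochberg adjusted p under 0.05), which is 38.1% of those tested, 24.3% higher and 13.9% lower. Probes had to be scored present on over 75% of the arrays at 1 age or the other to be tested. The median log2 change was 1.22 among the higher and -1.32 among the lower calls, against 0.18 over all tested probes. A change of 2-fold or more was called for 3039 higher and 1805 lower probes, but the most extreme changes were mainly falls: at 8-fold and beyond, that is 3 log2 units, 105 probes were lower and 12 higher. For 920 probes (5.15% of those tested) the values of the 15 arrays did not overlap between the ages, 673 of them higher and 247 lower at 30 weeks.

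The direction of the calls followed the presence of the probes. Among the 13155 probes expressed at both ages, 2499 were higher and 2132 lower, with a median log2 change of -0.01. Among the 4343 that met the presence rule at 30 weeks alone, 1833 were higher and 31 lower, and among the 362 that met it at 12 weeks alone, 313 were lower and 0 higher, which the presence rule itself favours. The split also followed the scaling: 63.6% of the calls were higher after quantile normalization and 52.8% (3523 higher, 3147 lower) when arrays were scaled to the 75th percentile of probes present on all 15 arrays, where 37.3% of the probes were called and the median over all tested probes was 0.03. Over all tested probes, the spread between arrays was larger at 12 weeks for 14506 (81.2%), with a median SD of 0.72 log2 units at 12 weeks and 0.42 at 30 weeks. These probes include the 4343 that did not meet the presence rule at 12 weeks, and the 12-week arrays include those that stood with the 30-week arrays. The spread was not taken over the probes expressed at both ages alone. How far the presence rule and those arrays set the difference in spread was not tested.

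The number of calls depended on how the arrays were modelled. Without 12-week male 3 and 12-week female 4, 9188 probes were called, 51.4% of those tested, among them 6697 of the 6808. With the log2 75th percentile of the signal as a covariate, 191 probes were called (1.07%), 190 of them among the 6808, and all 6808 kept their sign. With the replicate number as a block 4178 were called (23.4%), with scan day as a random block 822 probes were called (4.6%), and with slide as a random block 0 were called in limma, the lowest adjusted p being 0.0502, with 5500 probes at an unadjusted p under 0.05. Every p-value measures the spread between these arrays.

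**Figure D2:**
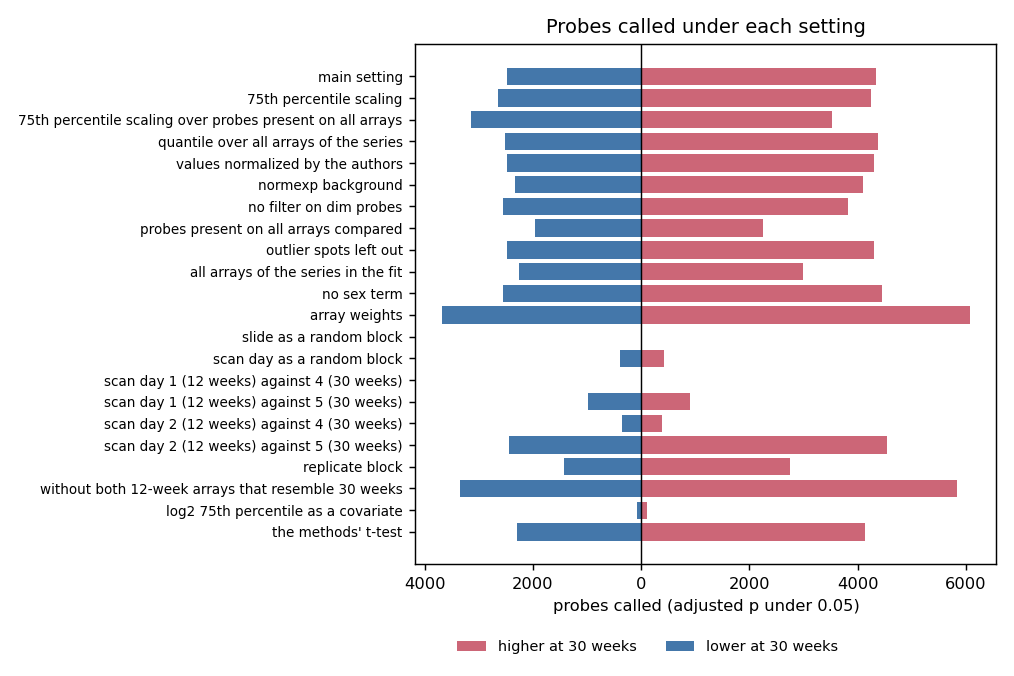
Bars give the number of probes called at an adjusted p under 0.05 under each setting, higher at 30 weeks to the right and lower to the left, both counted from 0. The main setting has 4332 higher and 2476 lower, scan day as a random block 427 and 395, and the brightness covariate 107 and 84.

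The probes that moved most are identified here by their sequence, since most of the array's probes carry no gene symbol in the files: a symbol was found for 3428 of 43603 probes, and for 1932 of those tested. All are 60 bases, printed 5′ to 3′ as the array files give them, and capitals mark the polyadenylation signal AATAAA, searched on the printed strand only, which 12.1% of all probes and 17.0% of tested probes hold, against 18.0% of the higher and 14.6% of the lower calls. The 3 unnamed probes with the largest rises and the 3 with the largest falls without overlap come first.
A_72_P263262: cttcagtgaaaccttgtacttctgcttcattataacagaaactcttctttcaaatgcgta
A_72_P087651: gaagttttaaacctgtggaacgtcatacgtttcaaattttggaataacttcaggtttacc
A_72_P431379: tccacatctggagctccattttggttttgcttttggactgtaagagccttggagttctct
A_72_P310518: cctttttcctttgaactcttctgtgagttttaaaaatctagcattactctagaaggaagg
A_72_P062226: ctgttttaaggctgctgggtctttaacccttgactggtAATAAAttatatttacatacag
A_72_P062996: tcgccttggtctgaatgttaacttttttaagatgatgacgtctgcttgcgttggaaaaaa
For the named genes, the probes of the 2 largest falls and the 2 largest rises are given, and the pairs of probes of SELENOK and PECAM1, whose readings are set side by side further on.
PLET1: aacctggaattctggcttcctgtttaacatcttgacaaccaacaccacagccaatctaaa
CYP21A2: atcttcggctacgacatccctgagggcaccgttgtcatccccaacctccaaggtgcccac
ITGB2: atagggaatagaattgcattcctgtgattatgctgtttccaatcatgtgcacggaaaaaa
C1R: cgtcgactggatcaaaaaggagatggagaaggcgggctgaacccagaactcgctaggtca
SELENOK, lower: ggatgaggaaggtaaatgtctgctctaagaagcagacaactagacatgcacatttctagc
SELENOK, higher: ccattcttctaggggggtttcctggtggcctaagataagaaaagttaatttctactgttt
PECAM1, first: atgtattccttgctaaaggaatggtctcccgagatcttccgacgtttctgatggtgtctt
PECAM1, second: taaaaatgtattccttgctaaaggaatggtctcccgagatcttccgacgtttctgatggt

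Among the unnamed probes, A_72_P310518 fell most, from 9.09 to 13.56 on the log2 scale of normalized signal at 12 weeks (median 11.29) to between 4.69 and 9.07 at 30 weeks (median 7.74), a log2 change of -4.27 ± 0.82 (SE, limma adjusted p = 0.00315). A_72_P062996 was well above background on 7 of 8 arrays at 12 weeks, with a median of 5.53, and on 0 of 7 at 30 weeks, so its fall is given as a bound, at least 5.24-fold lower (adjusted p = 0.00106). Here and below, such a bound sets the bright age against the dimmest signal scored well above background on each dim array. Of the rises, A_72_P263262 went from a median of 6.08 to 9.08 with a log2 change of 3.35 ± 0.82 (adjusted p = 0.00825). Its 12-week values ran from 1.78 to 8.16, and only 5 of the 8 arrays were scored present, so that the highest of them almost met the lowest 30-week value of 8.16.

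Among named genes without overlap, each read on its brightest probe, the falls were larger than the rises. PLET1, named from a transcript first described in placenta, read between 5.92 and 10.49 at 12 weeks (median 8.15) and between 2.13 and 5.72 at 30 weeks (median 4.75), when 5 of 7 arrays were present. The fitted log2 change was -4.09 ± 0.71 (SE, adjusted p = 0.00231), or 17.0-fold. CYP21A2, the steroid 21-hydroxylase of cortisol and aldosterone synthesis, read between 5.60 and 9.14 at 12 weeks and between 1.42 and 5.38 at 30 weeks, present on 8 of 8 and 4 of 7 arrays. Its log2 change was -3.998 ± 0.65 (adjusted p = 0.00185), and -2.54 with brightness as a covariate (adjusted p = 0.0441). No array of 30 weeks reached the lowest array of 12 weeks for either gene.

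ITIH2, a heavy chain of the inter-alpha inhibitor that circulates in plasma, changed by -2.73 ± 0.51 (adjusted p = 0.00305), from a median of 9.41 to 6.57. CLDN2, a claudin of epithelial tight junctions, changed by -2.62 ± 0.52 (adjusted p = 0.00359), from a median of 10.70 to 8.20. Both were present on all 15 arrays. A probe described as phosphodiesterase 2A, which breaks down cyclic nucleotides, read 4.25 to 6.41 at 12 weeks and 2.30 to 4.21 at 30 weeks, present there on 2 of 7 arrays, with a log2 change of -2.44 ± 0.37 (adjusted p = 0.00172). PLA2G1B, a secreted phospholipase, changed by -2.37 ± 0.41 (adjusted p = 0.00234), with 5 of 7 arrays of 30 weeks present, and its second tested probe was also called lower, by -2.04. A probe described as the aryl hydrocarbon receptor, a ligand-activated transcription factor, changed by -2.01 and ART5, an ADP-ribosyltransferase, by -1.94, present at 30 weeks on 2 of 7 and 1 of 7 arrays, so that most of their 30-week values come from arrays where the probe was not present. The glucose transporter SLC2A1 (-1.36), the chemokine receptor-like CCRL2 (-1.27) and COPS2, a subunit of the COP9 signalosome (-1.10), completed, with SELENOK, the 12 largest falls on the brightest probe of a gene.

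SELENOK, a selenoprotein of the endoplasmic reticulum, gave opposite readings from its 2 probes. The first read 10.11 to 11.30 at 12 weeks and 7.31 to 9.88 at 30 weeks, a log2 change of -1.74 ± 0.33 (adjusted p = 0.00302). The second read 7.27 to 9.001 at 12 weeks and 9.06 to 9.95 at 30 weeks, a change of 1.21 ± 0.26 (adjusted p = 0.00496). Neither probe overlapped between the ages, and the longest run of bases that they share is 7, so no single direction can be given for the gene.

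The largest named rise was that of ITGB2, the beta chain shared by the leukocyte integrins and the complement receptors, which read 8.56 to 10.62 at 12 weeks (median 9.38) and 10.69 to 12.46 at 30 weeks (median 11.79). Its log2 change was 2.07 ± 0.37 (SE, adjusted p = 0.00254), or 4.21-fold. A second, dimmer ITGB2 probe changed by 0.79 and was not called (adjusted p = 0.052). C1R, a protease of the first complement component, followed with 1.81 ± 0.32 (adjusted p = 0.00242), from 4.86 to 6.33 at 12 weeks to 6.41 to 8.20 at 30 weeks.

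NUP62, a nuclear pore protein, rose by 1.79 and EHMT2, a histone H3 lysine methyltransferase, by 1.78. Both NUP62 and ANKS3, given below, were named from a described partial match to the mouse protein. EPAS1, an oxygen-regulated transcription factor, was not well above background on any 12-week array and was present on 6 of 7 arrays of 30 weeks (adjusted p = 0.00206), too dim for a bounded fold. SLC11A1, a metal transporter of phagocyte vacuoles, rose by 1.57 ± 0.27 (adjusted p = 0.00206), from a median of 6.86 to 8.31. SDHA, a subunit of succinate dehydrogenase, changed by 1.67 and FASN, the fatty acid synthase, by 1.65 on their brighter probes, while the dimmer probe of each changed by -0.12 and -0.10 and was not called. The lysophosphatidic acid receptor LPAR2 (1.65), the parathyroid hormone receptor PTH1R (1.53), DNASE1 (1.30) and ANKS3 (1.30) made up the rest of the 12, LPAR2 being present on 3 of 8 and DNASE1 on 2 of 8 arrays of 12 weeks. Each of these 24 genes, on that probe, was called in all 15 fits that left out 1 array, which their choice as the largest calls without overlap favours. With scan day as a random block, NUP62, EHMT2, SDHA, FASN, LPAR2, DNASE1, ANKS3, SLC2A1, CCRL2 and COPS2 lost the call. With slide as a random block none was called, and with brightness as a covariate only CYP21A2 and the phosphodiesterase 2A probe were called.

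**Figure D3:**
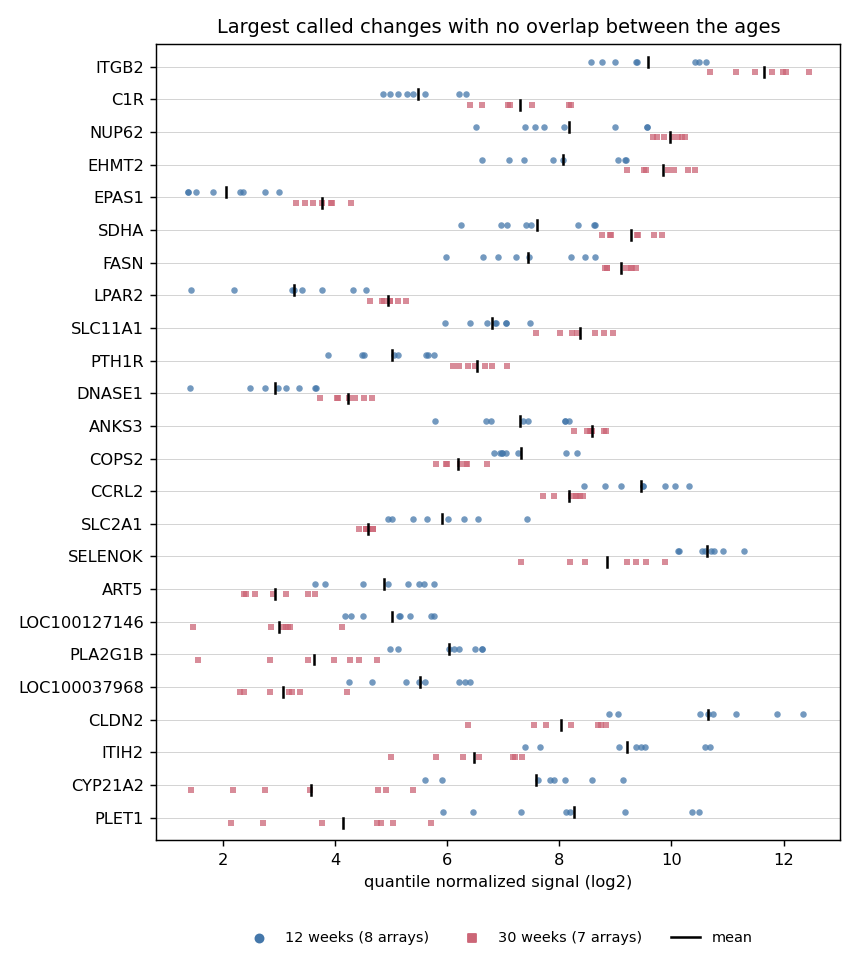
Points are the normalized log2 signal of single arrays (circles 12 weeks, n = 8, squares 30 weeks, n = 7) for the 12 largest named rises and the 12 largest named falls without overlap, with black bars at the means. PLET1 and CYP21A2 are set farthest apart, by -4.09 and -3.998 log2 units, and ITGB2 rose most, by 2.07.

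The named genes were then read by lists of cell type markers and pathways, 1 probe a gene, against the 1281 named genes tested, of which 32.3% were called, 18.3% higher and 14.1% lower at 30 weeks, with a median log2 change of 0.07. With brightness as a covariate, the platelet genes ITGA2B and ITGB3, PPARG of the growth factor list and PECAM1 of the tissue markers stayed called, and none of the other lists kept a call.

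**Figure D4:**
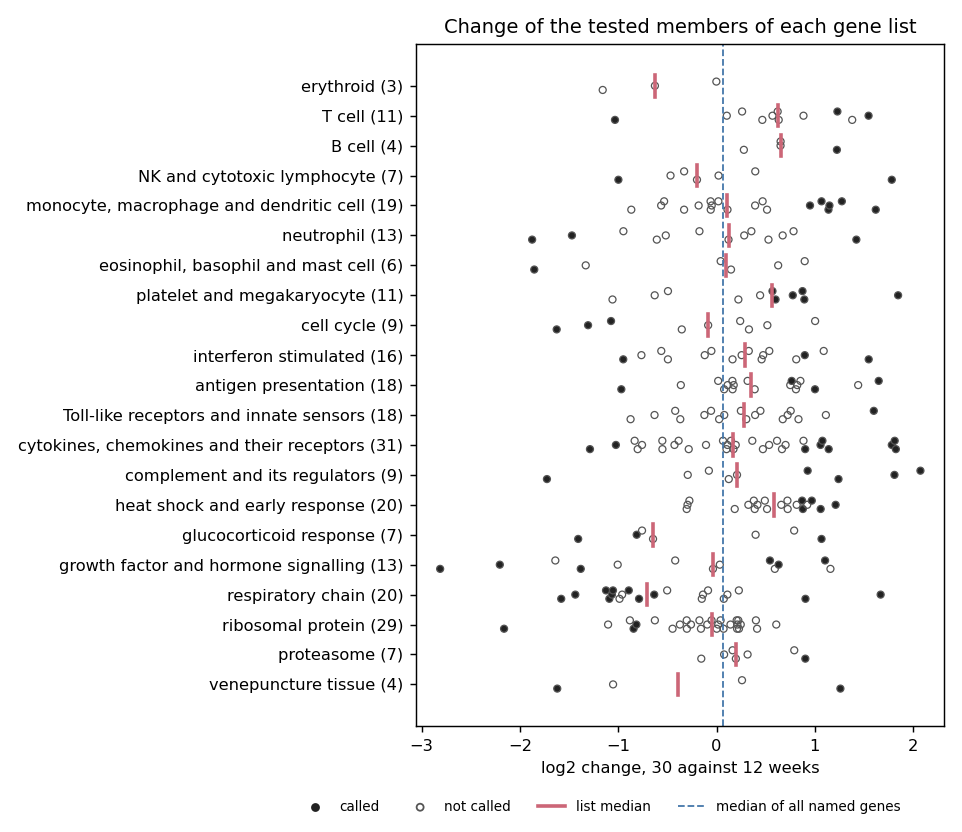
Each point is the fitted log2 change, 30 against 12 weeks, of 1 tested gene of a list (number tested in brackets), filled where called, with a red bar at the list's median and a dashed line at the median of all named genes, 0.07. The respiratory chain has the lowest median, -0.71, and B cell and T cell markers the highest, 0.65 and 0.62.

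Of 18 tested genes of antigen presentation, 3 were called higher at 30 weeks, the SLA genes SLA-1, SLA-DRA and SLA-3, and 1 lower, with a median change of 0.35. SLA-1, a classical class I heavy chain, read 14.37 to 16.32 at 12 weeks (median 15.40) and 16.04 to 17.68 at 30 weeks (median 16.95), a log2 change of 1.65 ± 0.32 (SE, adjusted p = 0.00348). The ages overlapped slightly. Of the other 9 SLA-1 probes, 5 were called higher and 0 lower, but near-identical class I transcripts may hybridise to the same probes. With scaling over the present probes, the change of the first probe was 0.59 (adjusted p = 0.0404). Under that scaling, the 5 others changed by 0.86 and 0.68, still called, and by 0.38, 0.23 and 0.02, no longer called.

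SLA-DRA, the class II alpha chain, rose by 1.002 ± 0.30 (adjusted p = 0.0194), from a median of 12.10 to 12.95. Its other probes changed by 0.90, called, and by 0.80 and 0.41, not called. SLA-3 was called at 0.76 (adjusted p = 0.0326), a call lost in 9 of the 15 fits without 1 array, and changed by 0.17 with scaling over the present probes. The other SLA-3 probes changed by 0.55, 0.88 and 0.59 and were not called. SLA-DQB1 changed by 1.44 ± 0.55 (adjusted p = 0.0502), SLA-7 by 0.85, SLA-DMA by 0.82 and SLA-DRB1 by 0.81, none of which passed, and the other SLA-DRB1 probes by 0.02, 0.25, 0.45 and 0.71, also without a call. CD1.1, which presents lipids, was lower, by -0.97 (adjusted p = 0.0392), and lost the call in 11 of the 15 fits without 1 array. The peptide transporters TAP1 (0.17) and TAP2 (-0.36) and the immunoproteasome subunits PSMB8 (0.32), PSMB9 (0.08) and PSMB10 (0.16) were not called.

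The T cell markers had a median change of 0.62 over 11 genes, 2 called higher and 1 lower. CD8A, the co-receptor of cytotoxic T cells, read 6.82 to 8.89 at 12 weeks (median 8.05) and 8.94 to 9.40 at 30 weeks (median 9.22). Every 30-week array thus lay above every 12-week array, the log2 change being 1.23 ± 0.31 (SE, adjusted p = 0.00963). GATA3, a transcription factor of T cell development, rose by 1.55 ± 0.50 (adjusted p = 0.0256), and lost the call in 3 of the 15 fits without 1 array.

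CD3G, a chain of the T cell receptor complex, went the other way, by -1.03 ± 0.32 (adjusted p = 0.0223), from a median of 10.72 to 9.68, the call being lost in 1 of the 15 fits without 1 array, and a second CD3G probe was also called lower, by -0.78. The other CD3 chains, CD3D (0.63) and CD3E (0.62), were not called, and neither was CD4 (1.38). The summed T cell marker level ranged from 12.85 to 13.74 at 12 weeks and from 13.31 to 14.11 at 30 weeks on the log2 scale, and its part in single results was not tested.

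Of 4 B cell markers, 1 was called, VPREB1, part of the surrogate light chain of developing B cells, higher by 1.22 ± 0.35 (adjusted p = 0.0151). CD72 changed by 0.65 and CD40 by 0.28, and neither passed. Of 7 natural killer and cytotoxic markers, CCL5, a chemokine of activated lymphocytes, was higher by 1.78 ± 0.55 (adjusted p = 0.0208), from a median of 6.84 to 8.80. SH2D1A, an adaptor of lymphocyte signalling, was lower by -0.999 ± 0.28 (adjusted p = 0.0146). The cytotoxic effectors GNLY (-0.20) and PRF1 (0.02) were not called.

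Monocyte and macrophage markers were higher in 6 of 19 genes and lower in 0, with a median of 0.11. Cathepsin B (CTSB), a lysosomal protease, rose by 1.62 ± 0.42 (adjusted p = 0.0103), from a median of 10.73 to 11.97. FCN1, a ficolin that binds microbial sugars, rose by 1.28 and SPI1, the transcription factor PU.1, by 1.15, with 5 of 8 arrays of 12 weeks present. SIRPA, an inhibitory receptor of myeloid cells, was called at 1.14 (adjusted p = 0.0253), a call lost in 3 of the 15 fits without 1 array. CD163, the haemoglobin scavenger receptor, was higher on all 3 of its probes, by 1.07, 1.44 and 1.51 log2 units, the first call being lost in 2 of the 15 fits without 1 array. CD14 (0.39), LYZ (-0.56) and CD86 (-0.06) were not called, and the summed marker level ran from 13.89 to 14.83 at 12 weeks and from 13.93 to 14.54 at 30 weeks, so the ranges overlapped.

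Neutrophil markers moved both ways, 1 of 13 being higher and 2 lower. Their median was 0.12 after quantile normalization, and -0.22 with scaling over the present probes, against -0.12 over all named genes. MMP9, a gelatinase of neutrophil granules, read 10.64 to 12.27 at 12 weeks (median 11.00) and 11.53 to 13.56 at 30 weeks (median 12.64), with 1 array of 12 weeks, female 4, overlapping the 30-week range. The log2 change was 1.42 ± 0.27 (SE, adjusted p = 0.00315). NPG4, which encodes an antimicrobial protegrin, fell by 1.88 ± 0.38 (adjusted p = 0.00382), from 7.47 to 9.42 at 12 weeks (median 8.85) to 5.52 to 8.03 at 30 weeks (median 6.67).

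PGLYRP1, a granule protein that binds peptidoglycan, was called at -1.47 (adjusted p = 0.0438), and the call was lost in 12 of the 15 fits without 1 array. MCT7, a mast cell tryptase, was the 1 call among 6 eosinophil, basophil and mast cell markers, lower by -1.85 ± 0.59 (adjusted p = 0.0242), a call lost in 3 of the 15 fits without 1 array. Its 30-week values, 3.48 to 5.74, overlapped the 12-week values, 3.99 to 8.52.

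Platelet and megakaryocyte markers were higher in 6 of 11 genes and lower in 0, with a median of 0.57. Without 12-week male 3 and 12-week female 4, 3 were called higher and 2 lower, with a median of 0.48. With scaling over the present probes 3 were higher and 0 lower, with a median of 0.35. The replicate block left 3 called. TBXAS1, the thromboxane synthase, changed by 1.85 ± 0.48 (adjusted p = 0.0108), with 4 of 8 arrays of 12 weeks and 7 of 7 of 30 weeks present. ITGB3, the beta chain of the fibrinogen receptor, read 9.47 to 11.01 at 12 weeks (median 10.28) and 10.61 to 11.75 at 30 weeks (median 11.29). Its log2 change was 0.87 ± 0.20 (SE, adjusted p = 0.00672), and 1.18 with brightness as a covariate (adjusted p = 0.0275).

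VWF, the von Willebrand factor, rose by 0.89, ITGA2B by 0.60 and SELP, the P-selectin, by 0.57. CLU, clusterin, was called at 0.78 (adjusted p = 0.0375) and lost the call in 10 of the 15 fits without 1 array. PPBP, a chemokine of platelet granules, changed by -1.06 and THBS1, thrombospondin, by -0.63, and neither passed. PECAM1, an adhesion molecule of platelets, leukocytes and endothelium that was listed here among tissue markers, rose on both of its overlapping probes, which share 55 bases. The first read 7.82 to 8.76 at 12 weeks and 8.99 to 10.19 at 30 weeks, with no overlap, a log2 change of 1.26 ± 0.21 (SE, adjusted p = 0.00196), and 1.12 with brightness as a covariate (adjusted p = 0.0431). The other 2 tested PECAM1 probes changed by -0.15 and 0.40 and were not called.

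The interferon response genes were called higher in 2 of 16 genes and lower in 1, with a median of 0.29. MX2, an antiviral GTPase present on 6 of 8 arrays of 12 weeks, changed by 1.55 (adjusted p = 0.0394), USP18, which removes ISG15 from proteins, by 0.90 (adjusted p = 0.0305), and IRF9, part of the interferon-activated transcription complex, by -0.95 (adjusted p = 0.0494). None of the 3 held in every fit without 1 array, the calls being lost in 7, 4 and 10 of 15. A second MX2 probe changed by 0.41 and was not called. The other tested IRF9 probes changed by 0.34 and 0.0036 and were not called either. IFNAR1, a chain of the type I interferon receptor, was higher by 1.08 ± 0.25 (adjusted p = 0.00721), from a median of 6.69 to 7.96, its second probe changing by 0.39 without a call, while IFNGR2, of the interferon gamma receptor, changed by -0.11.

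Toll-like receptors were not called on their brightest probes. TLR1 changed by -0.42, TLR2 by 0.45, TLR4 by -0.37, TLR7 by 0.30 and TLR10 by 0.67 (adjusted p = 0.0539), and of the 3 other TLR4 probes 1 was called lower, by -1.10. Of the 18 genes of innate sensing, 1 was called, RELA, the p65 subunit of NF-kappaB, at 1.60 ± 0.52 (adjusted p = 0.026), present on 2 of 8 and 6 of 7 arrays. That call was lost in 5 of the 15 fits without 1 array. SLA-6, TLR3, TLR6, TLR8 and TLR9 had no probe that met the presence rule at either age.

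Of 31 cytokines, chemokines and receptors, 7 were higher and 2 lower, with a median of 0.17. TGFB1, which restrains lymphocytes, read 5.49 to 9.66 at 12 weeks (median 8.72) and 9.57 to 10.38 at 30 weeks (median 9.92). The ages overlapped between 9.57 and 9.66, and the log2 change was 1.81 ± 0.55 (SE, adjusted p = 0.0196). IL2RG, the common gamma chain of several interleukin receptors, was called at 1.82 (adjusted p = 0.0267), with 4 of 8 arrays of 12 weeks present, a call lost in 3 of the 15 fits without 1 array. TNF, an inflammatory cytokine, was lower on both of its probes, by -1.29 ± 0.30 (adjusted p = 0.00721) and -0.87 (adjusted p = 0.0184), the first going from a median of 8.92 to 7.67. CSF3, a growth factor of granulocytes, was lower by -1.02, and IL16 (1.06), CXCL16 (1.14) and TNFRSF1A (0.90) were higher.

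Complement genes were called higher in 4 of 9 genes and lower in 1. Beside C1R and ITGB2, C2, which forms the classical convertase, rose by 1.24 ± 0.35 (adjusted p = 0.0154) and C3, the central component, by 0.93. C5AR1, the receptor for the C5a fragment on neutrophils and monocytes, fell by 1.73 ± 0.48 (adjusted p = 0.0143), from a median of 9.03 to 7.07. The list's median was 0.21, and -0.21 with scaling over the present probes, where that of all named genes was -0.12.

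Heat shock and early response genes were called higher in 5 of 20 genes and lower in 0, with a median of 0.59. MYC, a growth-promoting transcription factor, rose by 1.21 ± 0.37 (adjusted p = 0.0202) and JUN, of the AP-1 complex, by 0.97 ± 0.27 (adjusted p = 0.0147). HSP70 was higher by 0.87, HSP70.2 by 1.06 and HSPB1 by 0.88, the last 2 losing the call in 6 and 5 of the 15 fits without 1 array. The summed level of the list ran from 13.76 to 14.70 at 12 weeks and from 14.23 to 15.08 at 30 weeks.

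Of 7 glucocorticoid response genes, 1 was higher, the CD163 described above, and 2 lower. ANXA1, annexin A1, which dampens inflammation, read 8.77 to 11.34 at 12 weeks (median 10.15) and 7.69 to 9.37 at 30 weeks (median 8.36), a log2 change of -1.41 ± 0.28 (SE, adjusted p = 0.00349). A second ANXA1 probe, read without overlap, changed by -2.12 ± 0.29 (adjusted p = 0.00164). NR3C1, the glucocorticoid receptor, was lower by -0.81 ± 0.26 (adjusted p = 0.0259), its 30-week values, 6.85 to 7.38, all lying below the lowest 12-week value of 7.39.

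Growth factor and hormone genes were called higher in 3 and lower in 3 of 13 genes. PPARG, a nuclear receptor of fat cell differentiation, read 4.45 to 6.28 at 12 weeks (median 5.41) and 1.36 to 4.54 at 30 weeks (median 2.48), present on 8 of 8 and 1 of 7 arrays, so that most 30-week values come from arrays where the probe was not present. Its log2 change was -2.81 ± 0.42 (SE, adjusted p = 0.00172), and -1.87 with brightness as a covariate (adjusted p = 0.0312). IGF2, a fetal and postnatal growth factor, read 9.21 to 12.06 at 12 weeks (median 10.74) and 7.06 to 9.94 at 30 weeks (median 8.37), a change of -2.21 ± 0.49 (adjusted p = 0.00578). The 3 other IGF2 probes changed by -2.05, -0.60 and -0.29 and were not called.

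ADIPOR1, an adiponectin receptor, was lower on both of its probes, by -1.38 and -1.59, while ADIPOR2 was higher by 0.54. IGFBP1, which binds the insulin-like growth factors, rose by 1.105 ± 0.24 (adjusted p = 0.00472), from 8.18 to 9.22 at 12 weeks to 9.23 to 10.20 at 30 weeks, without overlap. STAT5B, a transducer of growth hormone signals, rose by 0.63. IGF1 (-1.01), LEP (0.59) and PPARD (-1.64) were not called.

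Respiratory chain genes were called lower in 9 of 20 genes and higher in 2, with a median of -0.71, the lowest of the lists, and -0.44 with brightness as a covariate, where none was called. The lower genes were 5 subunits of the ATP synthase, 3 of cytochrome c oxidase and 1 of complex I. ATP5O read 9.87 to 11.53 at 12 weeks (median 10.47) and 7.92 to 9.94 at 30 weeks (median 9.11), a log2 change of -1.58 ± 0.30 (SE, adjusted p = 0.00307), and ATP5L changed by -1.12 ± 0.24 (adjusted p = 0.00476).

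ATP5I (-1.05), ATP5J2 (-0.89) and ATP5S (-0.79) were also lower, as were COX7A1 (-1.09), COX7A2 (-1.06) and NDUFC1 (-0.63). COX7C was called at -1.44 (adjusted p = 0.0241), a call lost in 2 of the 15 fits without 1 array. The 2 higher genes were SDHA and SDHB (0.90), both of succinate dehydrogenase, the complex that links the citric acid cycle to the chain, and the third subunit measured, SDHD, changed by 0.23 and was not called.

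By the shift of its median, the list of ribosomal protein genes was the most open to the scaling. After quantile normalization 3 of 29 were lower and 0 higher, with a median of -0.05. With scaling over the present probes 17 were lower, with a median of -0.87 against -0.12 over all named genes. RPLP1, present on 3 of 7 arrays of 30 weeks, changed by -2.16 (adjusted p = 0.0371), RPLP0 by -0.84 (adjusted p = 0.0337) and RPL12 by -0.82 (adjusted p = 0.0376), and each lost the call in 10 of the 15 fits without 1 array. Of 7 proteasome genes, 1 was called, PSMC5, an ATPase of the regulatory particle, higher by 0.90 ± 0.24 (adjusted p = 0.0115), while its second probe changed by 0.47 and was not called.

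Cell cycle genes were lower in 3 of 9 genes and higher in 0, with a median of -0.09. CDKN3, a phosphatase of cyclin-dependent kinases, was lower on both of its probes, by -1.63 ± 0.39 (adjusted p = 0.00772) and -1.78. BIRC5, survivin, which acts in mitosis and against apoptosis, changed by -1.31 ± 0.37 (adjusted p = 0.0146), from a median of 12.36 to 10.99, and PCNA, the sliding clamp of DNA replication, by -1.07 ± 0.28 (adjusted p = 0.0104). TOP2A (0.33), CCNB1 (1.003) and CDC20 (0.52) were not called.

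Red cell genes were few on the tested list, and none of the 3 was called in the main setting, with a median of -0.63. With scaling over the present probes 2 of the 3 were called lower, with a median of -1.23. HBE1, an embryonic globin by name, read 13.88 to 14.91 at 12 weeks (median 14.20) and 12.14 to 14.63 at 30 weeks (median 13.97). A second HBE1 probe read 12.93 to 14.82 at 12 weeks (median 13.75) and 11.17 to 13.82 at 30 weeks (median 12.79). The probe described as hemoglobin alpha was present on 0 of the 15 arrays. Of the markers of tissue that a needle could carry into blood, 4 of 24 were expressed. TF, transferrin, made mainly by the liver, was lower by -1.62 ± 0.34 (adjusted p = 0.00431), MYLPF of muscle changed by 0.26 and DCN of connective tissue by -1.05, and the last 2 were not called.

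**Figure D5:**
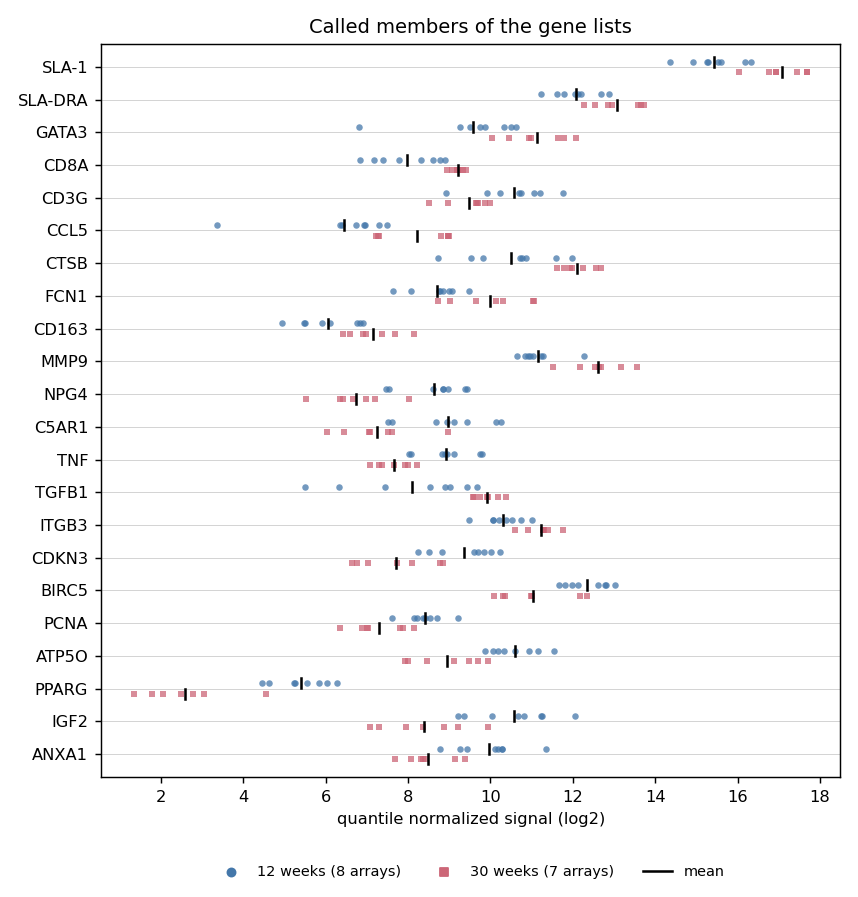
Points are the normalized log2 signal of single arrays (circles 12 weeks, n = 8, squares 30 weeks, n = 7) for called genes of the lists, with black bars at the means. CD8A has no overlap between the ages, the lowest CCL5 array of 12 weeks lies at 3.36, and PPARG was present on 1 of 7 arrays of 30 weeks.

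A set of 174 probes, 96 higher and 78 lower, was called in the main setting, without the 2 bright 12-week arrays, with brightness as a covariate and with scan day as a random block. With slide as a random block, 0 of these probes were called. They were gathered after their values were seen, and 14 of them carry 1 of 13 gene symbols, not always on the brightest probe of the gene, the probe by which the largest changes above were chosen. They include CYP21A2, PPARG, the phosphodiesterase 2A probe, the second ANXA1 probe and both overlapping PECAM1 probes, described above. The other lower ones were SEC62, of the translocon of the endoplasmic reticulum (-3.12), MKRN2, a RING finger protein (-2.38), BMP15, a growth factor known from the oocyte (-2.16), the small GTPase ARF6 (-1.16), the splicing factor SRSF2 (-0.995) and PGRMC2, a membrane haem-binding protein (-0.97). The other higher ones were CASP8, the initiator caspase of death receptors (1.35), and HPD, an enzyme of tyrosine breakdown (1.34). SEC62 read 9.78 to 12.57 at 12 weeks and 6.62 to 9.45 at 30 weeks, and CASP8 4.96 to 6.05 and 6.55 to 7.36, with no overlap in either. The other 3 SEC62 probes changed by -1.56 and -1.23, both called, and by -0.91, not called. The brighter CASP8 probe changed by -0.29 and was not called. For HPD, whose higher probe was present on 1 of 8 arrays of 12 weeks, the brighter probe was called lower, by -1.09 (limma adjusted p = 0.0345), so the 2 HPD probes moved in opposite directions. Second probes of MKRN2 (-0.34) and PGRMC2 (-0.28) were not called, and of the other 2 SRSF2 probes 1 was called (-0.997) and 1 was not (-0.14).

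A further 8 probes were present on all 7 arrays of 30 weeks and on none of 12 weeks, and 7 on all 8 arrays of 12 weeks and on none of 30 weeks. The 1 with a gene symbol was CDH13, a cadherin without a transmembrane part, at 3.28 to 4.46 at 30 weeks against 2.43 to 3.85 at 12 weeks (adjusted p = 0.0435), too dim for a bounded fold, and its call was lost in 11 of the 15 fits without 1 array.

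The age change was also fitted within each sex. In females 4660 probes were called (26.1% of those tested), 2728 higher and 1932 lower, and in males 1 probe was called (0.0056%), the unnamed A_72_P085731, lower by -3.16 log2 units, while 3366 probes in males and 7951 in females had an unadjusted p under 0.05. The difference between the sexes was itself called for 0 probes in limma, with a lowest adjusted p of 0.883 and 829 probes at an unadjusted p under 0.05, so the unequal counts do not show that the sexes differ. Of the 4660 female calls, 4411 (94.7%) had the same sign in males, against 78.8% of all tested probes. Their median size was 0.95 log2 units in males and 1.78 in females. Being chosen by their call in females itself favours a larger size there, so these sizes do not compare the sexes. The count in females fell to 120 without 30-week female 3, to 197 without 30-week female 2, to 221 without 12-week female 2, to 664 without 30-week female 1, to 1793 without 12-week female 1 and to 2613 without 12-week female 3. It rose to 8301 without 12-week female 4. The count in males rose to 199 without 12-week male 3.

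The named genes with the smallest p for a sex difference were ADORA3, an adenosine receptor, F12, coagulation factor XII, and FRAP1, the kinase also known as mTOR. ADORA3 changed by -1.30 in males and 0.69 in females, F12 by -0.34 and 1.38, and FRAP1 by 0.29 and -1.88. None passed the test of the difference (adjusted p = 0.883 for each in limma).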

How the data were processed

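RNA from whole blood was labelled with Cy3 and hybridised to a porcine 44K array, 1 RNA an array, and the authors read the scans with Agilent Feature Extraction 9.5.3.1. The deposited scanner files give the spot intensity as background-subtracted processed signal in arbitrary units, and a second deposited table holds log2 values after the authors' quantile normalization in GeneSpring (the log2 scale was read from the values). The presence flags are the scanner software's.

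From the processed signal, the mean of a probe's spots was taken as log2 and quantile normalized over the 15 arrays of 12 and 30 weeks. Probes present (positive and well above background) on more than 75% of the arrays of either age were tested, 17860 of 43603. Age was fitted with sex as a covariate in limma 3.58.1 (R 4.3.3), with p-values adjusted by Benjamini-Hochberg over all tested probes, called under 0.05. The change within each sex and the difference between the sexes came from a fit of the 4 groups. Scripts were tested on simulated data. Depth is not defined for arrays, whose number limits the precision. By the methods a single cohort was kept from 12 to 30 weeks, so animals sampled from it recur, but which arrays share an animal is not given in the sources used here, so arrays entered as independent and the p-values measure only the spread between them.

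Gene symbols came from the array files and from accession tables, for 3428 probes and 2288 genes. For 258 of these probes the symbol was read from the probe's description, which can be a partial match to a protein of another species. Where a gene had more than 1 probe, the brightest over the 15 arrays stood for it. Named genes were the 12 largest called rises and falls without overlap, up to 4 called members of each list by size, probes present on all arrays of one age and none of the other, the SLA, interferon receptor and Toll-like receptor genes, and the 3 smallest p-values for a sex difference. Other genes named for their list, and those of the probes called under several settings, were chosen after their values were seen. The values of 1 list member are not reported here. The ages, lists and tests were chosen with earlier results of these data known.

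Alternatives covered the scaling, the background correction, the presence filter, outlier spots, the whole series in the fit, no sex term, array weights, slide and scan day as random blocks, pairs of scan days, the replicate number as a block, the methods' t-test and leaving out each array. Added after seeing the data were leaving out 2 arrays together, the log2 75th percentile as a covariate, and a 75th percentile over probes present on all 15 arrays.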

Additional observations from a re-analysis of the deposited data

Results flagged for a closer look

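In 192 groups (a named gene, or 1 of 3 measures of the arrays, at 1 age), 6 held an array that stood apart by Dixon's test at the 95% level, where chance flags about 5% of groups. The log2 signal was lowest on 12-week female 2 for GATA3 (6.81), CCL5 (3.36) and PSMC5 (9.43), lowest on 12-week female 1 for SPI1 (2.90), lowest on 12-week female 3 for TLR1 (7.22), and highest on 12-week female 4 for MMP9 (12.3). All 6 were arrays of 12-week females.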

How the results depend on the processing

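All 6808 calls kept their sign with other normalizations by quantile, normexp background, no presence filter, no sex term, array weights and random blocks. They also did with the brightness covariate, without 1 array and without both arrays. With 75th percentile scaling 6800 kept it, and 6796 with that scaling over probes present on all 15 arrays. Between single scan days, 6701 kept it on days 1 and 4, 6625 on days 1 and 5 and 6653 on days 2 and 4. On days 2 and 5 all 6808 did. In total, 6374 to 9766 probes were called under the scalings, normexp (6441), no filter (6374), outlier removal and array weights (9766), and 5256 with the whole series. The exceptions for all, higher and lower calls were 4214, 2250 and 1964 of the 11493 probes present on all 15 arrays, 4178, 2744 and 1434 with a replicate block, 822, 427 and 395 with scan day as a random block, 0, 0 and 0 with slide, and 191, 107 and 84 with the brightness covariate. Scan days 1 and 4 alone gave 1, 1 and 0, days 1 and 5 gave 1876, 899 and 977, and days 2 and 4 gave 732, 376 and 356. Without 1 array the totals ran from 4562 (without 30-week female 3) to 8111 (without 12-week female 4), the higher calls from 2906 to 5209 and the lower from 1656 to 2902. The causes were not tested.

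In males, 27 probes were called with normexp, 10 with no filter, 24 with the whole series, 8624 with array weights, 51 on days 1 and 5, 1839 without both arrays and 0 with slide, scan day, the replicate block, the covariate or the other day pairs. Without 1 array the count ran from 0 to 199. In females, 2737 were called with no filter, 3040 among probes present on all arrays, 7675 with array weights, 4 with slide, 4 with scan day, 9 with the replicate block, 20 with the covariate, 8484 without both arrays, 0 on days 1 and 4, 22 on days 1 and 5, 0 on days 2 and 4 and 8372 on days 2 and 5, and from 120 to 8301 without 1 array. A sex difference was called for 4 probes on days 1 and 5.

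Of the 80 named calls, 59 held in all 15 fits without 1 array, 22 with scan day as a block and 62 with the replicate block. With the covariate 5 held, and 78 held without both arrays, whose removal itself favours calls. Between single scan days the sign turned for SIRPA (-0.00155), HSPB1 (-0.00748) and RPLP1 (0.46) on days 1 and 4, for PGLYRP1 (0.42), MCT7 (8.03e-05), SLA-3 (-0.13) and RPL12 (0.0637) on days 1 and 5, and for IRF9 (0.12) on days 2 and 4. Correlations of deviations between same-numbered arrays of the 2 ages ran from -0.474 to 0.318 over 7 pairs. For male 2, male 3 and female 1 (0.128, 0.318 and 0.216) they exceeded those with every other number. For the remaining pairs another number gave a higher correlation. Arrays also differed in brightness and scan day, so these values cannot tell whether the replicate numbers mark animals.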
